A study of Homo sapiens with 12 samples.

Results

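The genes described here encode 10 proteins that protect broken DNA ends or decide how cells answer inhibitors of poly(ADP-ribose) polymerase (PARP): PARP1, PARP2, PARG, TP53BP1, RIF1, MAD2L2, DYNLL1, POLQ, SLFN11 and ABCB1. They were picked by gene symbol out of the 58735 genes of the count table, and all 10 were among the 15378 genes with enough counts to be tested. RNA was sequenced from Ovcar8, a human line of high-grade serous ovarian carcinoma, grown in RPMI-1640 with 5% FBS. All cells carried lentiviral constructs selected with puromycin at 3 µg/ml, and the groups differed by what the construct or constructs added. The groups, of 3 libraries each, were CCNE1 overexpression with the first hairpin against TMLHE (shTMLHE 1 cells), CCNE1 overexpression with the second hairpin (shTMLHE 2 cells), CCNE1 overexpression alone (CCNE1 cells), and control cells. CCNE1 encodes cyclin E1, which drives cells into S phase, and TMLHE encodes the enzyme that opens carnitine synthesis. The study asked how CCNE1 overexpression differed from control and how each hairpin differed from CCNE1 overexpression. No hairpin without a TMLHE target is among the samples, both hairpin comparisons share the CCNE1 libraries, and the CCNE1 comparison uses them too.

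PARP1 and PARP2 sense breaks and build poly(ADP-ribose) chains, which PARG removes. The 53BP1 protein, with RIF1 and the shieldin complex that contains MAD2L2 (REV7), shields broken ends from resection and so works against homologous recombination, and polymerase theta (POLQ) joins resected ends by short stretches of homology. Loss of end protection is a known route to PARP inhibitor resistance in cells without BRCA1, loss of SLFN11 or PARG and gain of the efflux pump ABCB1 are other routes, and cells without homologous recombination depend on POLQ.

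Both hairpins left little TMLHE mRNA. TMLHE stood at 0.712, 0.885 and 1.27 CPM (counts per library size, with library sizes scaled by the TMM method) in shTMLHE 1 cells and at 0.247, 0.471 and 0.729 CPM in shTMLHE 2 cells, against 13.2, 15.4 and 18.6 CPM in CCNE1 cells and 18.3, 16.2 and 15.1 CPM in control cells. CCNE1 averaged 1269 CPM in shTMLHE 1 cells, 847.1 CPM in shTMLHE 2 cells and 1001 CPM in CCNE1 cells, against 33.1 CPM in control cells. Libraries held 14054101 to 21457503 counts, and the first principal component carried 62.99% of the variance. In every pair of replicates the counts differed by more than sampling noise, and nothing in the labels places replicates in separate cultures. The p-values therefore cover the spread among these libraries, which may be technical. Of the epithelial and serous markers, MUC16 was at 0 and SOX17 under 10 counts in every library, and WT1 also had too few counts to test. The list, which also holds KRT7, KRT8 and KRT18, summed to 6280 to 6505 CPM in shTMLHE 1 cells and 4308 to 4408 CPM in shTMLHE 2 cells. It summed to 8194 to 8299 CPM in CCNE1 cells and 5136 to 5217 CPM in control cells. Which genes carried the sum is not given here. Leukocyte markers summed to at most 2.9 CPM and endothelial markers to at most 3.3 CPM. The fibroblast list summed to 1501 to 1591 CPM in shTMLHE 1 cells, 1215 to 1255 CPM in shTMLHE 2 cells, 591 to 623 CPM in CCNE1 cells and 852 to 925 CPM in control cells. It was carried by COL1A1, with DCN at 0 and LUM and PDGFRA too low to test, and its part in the results was not tested. These are bulk samples, so fewer cells expressing a gene and less RNA per cell cannot be told apart.

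The largest changes with shTMLHE 2 were in POLQ and MAD2L2. POLQ mRNA rose with both hairpins, MAD2L2 fell with both, and RIF1 rose beside POLQ. Their promoters, taken from RefSeq (GRCh38.p14), are shown because these 3 genes had the largest changes of the 10 with shTMLHE 2, and each line gives the 250 bases before the start on the gene's own strand. Capitals mark 2 motifs searched on both strands: the GC box GGGCGG and the cell cycle homology region TTTGAA.
POLQ: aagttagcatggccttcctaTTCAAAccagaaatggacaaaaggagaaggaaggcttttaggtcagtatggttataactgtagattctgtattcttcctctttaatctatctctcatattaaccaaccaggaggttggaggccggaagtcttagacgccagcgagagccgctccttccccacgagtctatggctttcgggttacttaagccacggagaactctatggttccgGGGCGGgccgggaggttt
RIF1: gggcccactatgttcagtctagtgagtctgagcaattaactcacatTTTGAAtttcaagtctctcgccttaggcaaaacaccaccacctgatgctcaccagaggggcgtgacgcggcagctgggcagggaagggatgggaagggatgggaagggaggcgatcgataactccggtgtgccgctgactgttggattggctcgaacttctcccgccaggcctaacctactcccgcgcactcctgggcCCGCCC
MAD2L2: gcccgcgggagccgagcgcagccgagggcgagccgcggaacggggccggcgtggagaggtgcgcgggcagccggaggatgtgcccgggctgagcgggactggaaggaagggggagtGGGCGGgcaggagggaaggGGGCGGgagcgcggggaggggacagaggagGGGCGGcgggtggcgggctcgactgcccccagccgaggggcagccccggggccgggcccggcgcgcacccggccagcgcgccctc
The POLQ window is chr3:121545989-121546238 on the minus strand, the RIF1 window chr2:151409652-151409901 on the plus strand, and the MAD2L2 window chr1:11691560-11691809 on the minus strand. The GC content of the MAD2L2 window was 81.6%, against 58.4% for RIF1, 48.4% for POLQ and a median of 58.0% over all 35116 promoters. POLQ and RIF1 each held 1 TTTGAA, which 13.3% of all promoters hold, and MAD2L2 held none. GGGCGG occurred 3 times in the MAD2L2 window and 1 time in each of the others, and 42.6% of all promoters hold it. RIF1 also held 1 CCAAT, which is not in capitals and which 32.0% of promoters hold. E2F sites (TTTGGCGC, TTTCGCGC, TTTCCCGC or TTTGCCGC) were in 0 of the 13 promoters listed for the 10 genes and in 2.79% of all promoters, and a GC box and an E2F site can share letters. MAD2L2, DYNLL1 and ABCB1 have a second listed start, and the other MAD2L2 window had 70.8% GC, 5 GGGCGG and 1 CCAAT.

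In shTMLHE 1 cells against CCNE1 cells, 3 of the 10 genes rose (POLQ, RIF1, TP53BP1) and 5 fell (MAD2L2, DYNLL1, SLFN11, PARP1, PARP2). Over all tested genes 30.4% rose and 30.3% fell in that comparison, and 60.7% passed in either direction (edgeR's quasi-likelihood test, adjusted p under 0.05 over all tested genes). In shTMLHE 2 cells against CCNE1 cells, 5 rose (POLQ, RIF1, ABCB1, TP53BP1, PARG) and 2 fell (MAD2L2, DYNLL1), beside 36.8% higher, 36.2% lower and 73.0% in either direction over all tested genes. CCNE1 cells against control cells gave 6 rises (SLFN11, RIF1, PARG, DYNLL1, POLQ, MAD2L2) and 0 falls, beside 25.1% higher, 19.1% lower and 44.2% in either direction. Between the hairpins, 1 gene was higher in shTMLHE 1 cells (MAD2L2) and 6 were lower, beside 31.3% higher, 29.0% lower and 60.3% in either direction. Against control cells, 5 rose and 3 fell in shTMLHE 1 cells, beside 35.3% higher, 33.4% lower and 68.7% in either direction over all genes, and 6 rose and 1 fell in shTMLHE 2 cells, beside 39.0%, 39.1% and 78.1%. The median log2 change of the 10 genes was 0.01 with shTMLHE 1, 0.36 with shTMLHE 2, 0.45 with CCNE1 and -0.30 between the hairpins, against 0.03, 0.03, 0.05 and -0.01 over all tested genes. The libraries of both groups did not overlap for 8 of the 10 genes with shTMLHE 1 (63.9% of all tested genes), 7 with shTMLHE 2 (75.6%), 5 with CCNE1 (47.2%) and 8 between the hairpins (69.7%). Against control cells this held for 7 of the 10 with shTMLHE 1 (72.0%) and 7 with shTMLHE 2 (81.3%). None of these counts is read as particular to the 10 genes.

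**Figure D1:**
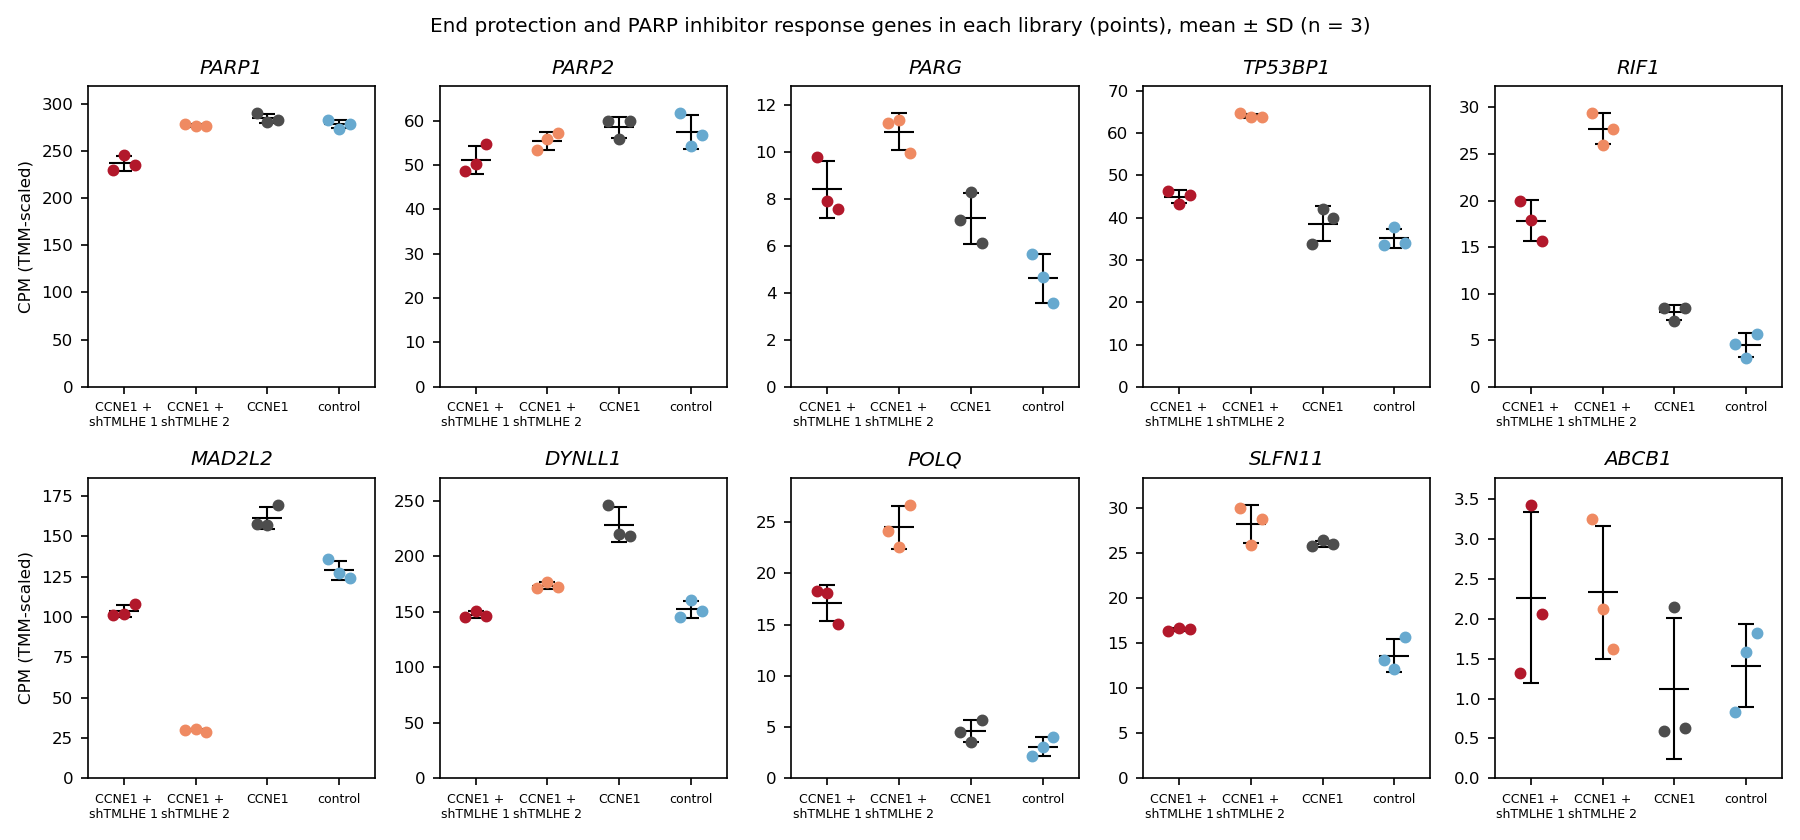
Level of each of the 10 genes in CPM on TMM-scaled library sizes, with 1 point per library and the mean ± SD of 3 libraries as bars, for shTMLHE 1, shTMLHE 2, CCNE1 and control cells from left to right. POLQ and RIF1 are highest in the hairpin groups, MAD2L2 is lowest in shTMLHE 2 cells at 28.9 to 30.5 CPM, and the ABCB1 points of all groups overlap below 3.5 CPM.

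The changes followed the base composition of the transcripts over the whole table. Genes were split by GC content into 10 equal bins. In shTMLHE 2 cells against CCNE1 cells, the bin at the low end (median GC 37.1%) had a median log2 change of 1.27 and the bin at the high end (median GC 64.2%) one of -1.27. The same bins stood at 0.64 and -0.45 with shTMLHE 1, at 0.48 and -0.04 with CCNE1, and at -0.56 and 0.75 between the hairpins. GC content and exon length together accounted for 38.25% of the variance of the changes across genes with shTMLHE 2, 15.85% with shTMLHE 1, 9.17% with CCNE1 and 30.27% between the hairpins. The members lay far apart on that axis. RIF1 transcripts had 37.3% GC, at percentile 5.6 of 15373 genes, POLQ 41.1% at percentile 19.2, and MAD2L2 63.4% at percentile 93.5. PARP1 with 49.6% and DYNLL1 with 52.5% lay nearer the middle, at percentiles 52.1 and 61.9. Each test was therefore repeated with the GC and length trend of every library removed, and for the 10 genes the values stand beside the first ones wherever a call was lost, gained or turned. Whether the trend came from the cells or from library preparation was not tested.

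**Figure D2:**
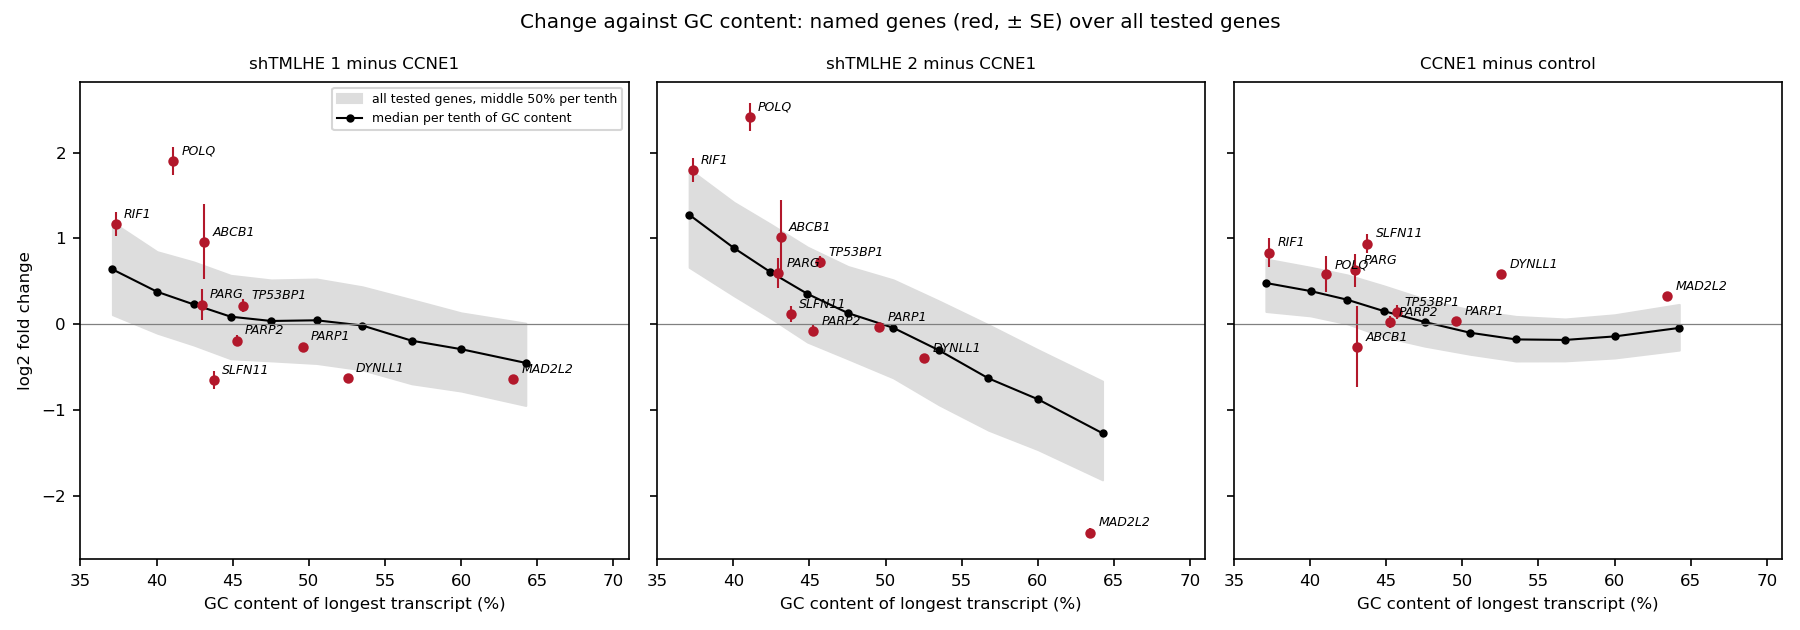
Log2 fold change ± SE of the 10 genes (red) against the GC content of the longest transcript in percent, with the median (black) and middle 50% (grey) of all tested genes in each of 10 bins of GC content, for shTMLHE 1 against CCNE1, shTMLHE 2 against CCNE1 and CCNE1 against control. POLQ lies above the grey band with both hairpins, MAD2L2 lies below it with shTMLHE 2, and RIF1 lies near its upper edge in all panels.

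PARP1 (ENSG00000143799, chr1:226360691-226408079, GRCh38, minus strand), the enzyme that makes most poly(ADP-ribose) after damage and the main target of the inhibitors, was 229.7, 245.3 and 235.4 CPM in shTMLHE 1 cells and 278.7, 276.1 and 276.4 CPM in shTMLHE 2 cells, against 289.8, 280.8 and 282.5 CPM in CCNE1 cells and 282.3, 273.6 and 278.8 CPM in control cells. All 3 libraries of shTMLHE 1 cells lay below the other 9. PARP1 fell by 0.26 ± 0.04 log2 units with shTMLHE 1 (edgeR adjusted p = 5.94e-08), was -0.04 ± 0.04 with shTMLHE 2 (adjusted p = 0.359), and differed between the hairpins by -0.23 ± 0.04 (adjusted p = 9.55e-07). The CCNE1 comparison gave 0.03 ± 0.04 (adjusted p = 0.525). After the GC and length trend was taken out, the shTMLHE 1 value was -0.45 and the shTMLHE 2 value -0.19 (adjusted p = 8.57e-06), and the CCNE1 value was 0.09 (adjusted p = 0.0412).

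PARP2 (ENSG00000129484, chr14:20343582-20357905, plus strand), the second break-sensing PARP and also a target of the inhibitors, was 48.5, 50.2 and 54.7 CPM in shTMLHE 1 cells and 53.3, 55.7 and 57.2 CPM in shTMLHE 2 cells, against 59.9, 55.8 and 59.9 CPM in CCNE1 cells and 61.6, 54.2 and 56.6 CPM in control cells. The shTMLHE 1 libraries all lay below the CCNE1 libraries, and every other pair of groups overlapped. It fell by 0.19 ± 0.07 with shTMLHE 1 (edgeR adjusted p = 0.0117), a call that was lost without shTMLHE 1 replicate 1 (-0.16, adjusted p = 0.0704). It stood at -0.08 ± 0.07 with shTMLHE 2 (adjusted p = 0.281), at -0.12 ± 0.07 between the hairpins (adjusted p = 0.129) and at 0.02 ± 0.07 with CCNE1 (adjusted p = 0.813). Without shTMLHE 1 replicate 3 the difference between the hairpins was -0.17 (adjusted p = 0.0473). That difference also passed in edgeR with DESeq2 size factors (-0.15, adjusted p = 0.0416) and on total counts (-0.25, adjusted p = 0.00114). With the trend removed, the shTMLHE 2 value was -0.36 (adjusted p = 8.78e-06). The direction of PARP1 and PARP2 depended on scaling: on total counts, which moved the median change of all genes from 0.03 to 0.43 with shTMLHE 1 and to 0.56 with shTMLHE 2, PARP1 was at 0.13 and 0.49 and PARP2 at 0.20 and 0.45. Both genes thus lay below that median under either scaling. Total counts also turned the calls over all genes from 4673 higher and 4665 lower to 7844 and 2490 with shTMLHE 1, and from 5653 and 5571 to 8315 and 3443 with shTMLHE 2.

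PARG (ENSG00000227345, chr10:49818279-49970203, minus strand), the hydrolase that takes poly(ADP-ribose) chains apart, was low throughout, at 9.81, 7.91 and 7.57 CPM in shTMLHE 1 cells and 11.3, 11.4 and 9.98 CPM in shTMLHE 2 cells, against 7.10, 8.31 and 6.15 CPM in CCNE1 cells and 5.65, 4.68 and 3.56 CPM in control cells. Every CCNE1 library was above every control library, and every shTMLHE 2 library above every CCNE1 library. PARG rose by 0.60 ± 0.17 with shTMLHE 2 (edgeR adjusted p = 0.0021) and by 0.63 ± 0.19 with CCNE1 (adjusted p = 0.00745), and stood at 0.23 ± 0.18 with shTMLHE 1 (adjusted p = 0.268) and at -0.37 ± 0.17 between the hairpins (adjusted p = 0.0546). The difference between the hairpins passed without shTMLHE 1 replicate 1 (-0.49, adjusted p = 0.0288), on total counts (-0.50, adjusted p = 0.00871) and from the compared groups alone (-0.37, adjusted p = 0.0106). Leaving out CCNE1 replicate 1, 2 or 3 or control replicate 1 or 3 let it pass too, at a change of -0.37 each time. So did edgeR with DESeq2 size factors (-0.41, adjusted p = 0.0334) and DESeq2 itself (-0.41, adjusted p = 0.0367). For the CCNE1 comparison the call rested on control replicate 3 (0.48 and adjusted p = 0.0617 when left out) and on CCNE1 replicate 2 (0.50 and 0.052 when left out). On total counts PARG stood at 0.62 with shTMLHE 1 (adjusted p = 0.0021) and at 1.13 with shTMLHE 2. Free of the trend, the values were 0.05 with shTMLHE 2 (adjusted p = 0.796), 0.04 with shTMLHE 1 and 0.39 with CCNE1 (adjusted p = 0.109). No PARG call was left in these comparisons. A share of 22.4% of the 50-base stretches of PARG also occurs in its copy PARGP1, which was looked at after its values were seen. PARGP1 was at 1.51 ± 0.30 with shTMLHE 1 and 2.30 ± 0.29 with shTMLHE 2 (adjusted p = 3.74e-05 and 4.74e-09), and how the counting divided reads between the copies was not tested.

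TP53BP1 (ENSG00000067369, chr15:43403061-43510728, minus strand), whose product 53BP1 binds chromatin beside breaks and starts end protection, was 46.4, 43.3 and 45.4 CPM in shTMLHE 1 cells and 64.7, 63.8 and 63.7 CPM in shTMLHE 2 cells, against 33.9, 42.0 and 39.9 CPM in CCNE1 cells and 33.7, 37.7 and 33.9 CPM in control cells. The shTMLHE 2 libraries lay above all others. TP53BP1 rose by 0.72 ± 0.07 with shTMLHE 2 (edgeR adjusted p = 2.09e-11) and by 0.22 ± 0.08 with shTMLHE 1 (adjusted p = 0.0129), and shTMLHE 1 was 0.51 ± 0.07 below shTMLHE 2 (log2 difference -0.51, adjusted p = 7.76e-08). The CCNE1 value was 0.14 ± 0.08 (adjusted p = 0.143). The shTMLHE 1 call was lost without CCNE1 replicate 1 (0.13, adjusted p = 0.135) and without shTMLHE 1 replicate 1 (0.19, adjusted p = 0.0525). It was lost too on log2(FPKM + 0.1) (limma, 0.20, adjusted p = 0.0753) and log2(FPKM + 1) (0.15, adjusted p = 0.0777). On total counts the values were 0.61 with shTMLHE 1 and 1.25 with shTMLHE 2. Without CCNE1 replicate 1 the CCNE1 value became 0.22 (adjusted p = 0.022). Once the trend was removed, shTMLHE 1 stood at -0.19 (adjusted p = 0.0271), the opposite direction, and shTMLHE 2 at 0.14 (adjusted p = 0.101), with -0.33 between the hairpins. On the opposite strand TUBGCP4 overlaps 28.7% of TP53BP1's exon bases. That neighbour, looked at after its values were seen, fell by 0.51 ± 0.11 with shTMLHE 1 and by 0.56 ± 0.11 with shTMLHE 2, opposite to TP53BP1, and whether reads were counted by strand is not given in the sources used here.

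RIF1 (ENSG00000080345, chr2:151409883-151508013, plus strand), which 53BP1 recruits to block resection, was 19.997, 17.9 and 15.6 CPM in shTMLHE 1 cells and 29.3, 26.0 and 27.7 CPM in shTMLHE 2 cells, against 8.44, 7.04 and 8.49 CPM in CCNE1 cells and 4.6, 3.09 and 5.71 CPM in control cells. The 4 groups did not overlap. RIF1 rose 2.24-fold with shTMLHE 1 (log2 1.17 ± 0.14, edgeR adjusted p = 4.24e-09), 3.48-fold with shTMLHE 2 (1.80 ± 0.14, adjusted p = 1.35e-14) and 1.78-fold with CCNE1 (0.83 ± 0.17, adjusted p = 0.00014). With both hairpins and with CCNE1, its log2 change moved by more units than that of any other member when the trend was removed. The values then were 0.22 with shTMLHE 1 (adjusted p = 0.178), 0.34 with shTMLHE 2 (adjusted p = 0.024), 0.40 with CCNE1 (adjusted p = 0.0591) and -0.13 between the hairpins (adjusted p = 0.415, against -0.63 ± 0.13 and 3.99e-05 before).

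MAD2L2 (ENSG00000116670, chr1:11674480-11691650, minus strand), the shieldin subunit REV7, which also serves in polymerase zeta and restrains the anaphase-promoting complex, went the other way. It stood at 101.0, 101.9 and 108.1 CPM in shTMLHE 1 cells and at 30.3, 30.5 and 28.9 CPM in shTMLHE 2 cells, against 158.0, 157.2 and 169.6 CPM in CCNE1 cells and 135.8, 127.1 and 124.4 CPM in control cells. No groups overlapped, and the order was CCNE1, control, shTMLHE 1 and shTMLHE 2 from high to low. MAD2L2 was 1.56-fold lower with shTMLHE 1 (log2 -0.64 ± 0.05, edgeR adjusted p = 2.53e-14) and 5.40-fold lower with shTMLHE 2 (-2.43 ± 0.05, adjusted p = 1.08e-31). It was 3.46-fold higher in shTMLHE 1 than in shTMLHE 2 cells (1.79 ± 0.06, adjusted p = 1.77e-26), and it rose 1.25-fold with CCNE1 (0.32 ± 0.05, adjusted p = 1.16e-06). With the trend removed the calls held, at -0.22 with shTMLHE 1 (adjusted p = 0.000101), -1.33 with shTMLHE 2 (adjusted p = 3.91e-24) and 1.12 between the hairpins. On total counts the shTMLHE 1 value was -0.25.

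DYNLL1 (ENSG00000088986, chr12:120469850-120498493, plus strand), a dynein light chain that binds 53BP1 and restrains resection by MRE11, was 145.2, 150.7 and 146.1 CPM in shTMLHE 1 cells and 171.2, 176.9 and 172.6 CPM in shTMLHE 2 cells, against 246.3, 220.3 and 218.3 CPM in CCNE1 cells and 145.5, 160.2 and 150.4 CPM in control cells. CCNE1 cells stood above every other group, and shTMLHE 1 and control libraries overlapped. DYNLL1 rose 1.501-fold with CCNE1 (log2 0.59 ± 0.05, edgeR adjusted p = 2.17e-13), and fell by 0.63 ± 0.05 with shTMLHE 1 (adjusted p = 3.01e-15) and by 0.39 ± 0.04 with shTMLHE 2 (adjusted p = 3.6e-10). Against control, shTMLHE 1 cells stood at -0.05 ± 0.05 (adjusted p = 0.392) and shTMLHE 2 cells at 0.19 ± 0.05 (adjusted p = 0.000276). Free of the trend, shTMLHE 2 against CCNE1 was -0.12 (adjusted p = 0.0132) and the difference between the hairpins -0.43 in place of -0.24. On total counts the shTMLHE 1 value was -0.24 and the shTMLHE 2 value turned to 0.14, below the 0.56 that scaling gave the median gene.

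POLQ (ENSG00000051341, chr3:121431427-121546641, minus strand), the polymerase and helicase of theta-mediated end joining, was 18.2, 18.1 and 15.1 CPM in shTMLHE 1 cells and 24.2, 22.6 and 26.7 CPM in shTMLHE 2 cells, against 4.56, 3.58 and 5.70 CPM in CCNE1 cells and 2.16, 3.09 and 4.06 CPM in control cells. Both hairpin groups lay far above the rest, while CCNE1 and control libraries overlapped. POLQ rose 3.74-fold with shTMLHE 1 (log2 1.90 ± 0.16, edgeR adjusted p = 6.73e-13) and 5.33-fold with shTMLHE 2 (2.41 ± 0.16, adjusted p = 1.73e-16). Against control cells the rises were 5.59-fold and 7.97-fold (2.48 ± 0.18 and 2.99 ± 0.18, adjusted p = 3.7e-15 and 2.98e-18). With the trend removed both hairpin rises stayed, at 1.40 ± 0.16 (adjusted p = 1.18e-09) and 1.49 ± 0.16 (adjusted p = 1.17e-10), and shTMLHE 1 no longer stood below shTMLHE 2 (-0.09, adjusted p = 0.619, against -0.51 ± 0.14 and 0.00147 before). The rise with CCNE1 was smaller and less steady, at 0.58 ± 0.21 (adjusted p = 0.0234). It was lost without control replicate 1 (0.36, adjusted p = 0.208), without CCNE1 replicate 3 (0.39, adjusted p = 0.173), with the compared groups alone (0.55, adjusted p = 0.139) and with the trend removed (0.27, adjusted p = 0.345). On the log2(FPKM + 0.1) and log2(FPKM + 1) scales the CCNE1 call was lost as well (limma, 0.45 with adjusted p = 0.0884 and 0.16 with adjusted p = 0.165). Counts per library were 249 to 333 with shTMLHE 1 and 476 to 588 with shTMLHE 2, against 61 to 90 in CCNE1 cells and 31 to 49 in control cells. Proliferation markers, 8 genes, summed to 1701 to 1798 CPM in shTMLHE 1 cells, 1802 to 1879 CPM in shTMLHE 2 cells, 1622 to 1653 CPM in CCNE1 cells and 1147 to 1183 CPM in control cells, with 4 higher and 3 lower in shTMLHE 1 cells, 5 and 3 in shTMLHE 2 cells, and 8 and 0 with CCNE1. Their part in the POLQ values was not tested.

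SLFN11 (ENSG00000172716, chr17:35350305-35373701, minus strand), a factor that halts replication forks under drug-induced stress, was 16.4, 16.6 and 16.6 CPM in shTMLHE 1 cells and 30.1, 26.0 and 28.8 CPM in shTMLHE 2 cells, against 25.8, 26.5 and 26.0 CPM in CCNE1 cells and 13.1, 12.1 and 15.6 CPM in control cells. The hairpin groups parted here: shTMLHE 2 and CCNE1 libraries overlapped, and shTMLHE 1 libraries lay between control and CCNE1 cells. SLFN11 rose 1.92-fold with CCNE1 (log2 0.94 ± 0.11, edgeR adjusted p = 4.5e-09) and fell by 0.66 ± 0.10 with shTMLHE 1 (adjusted p = 8.74e-07). With shTMLHE 2 the value was 0.12 ± 0.10 (adjusted p = 0.286), or 0.65 on total counts (adjusted p = 2.49e-07), a scaling that also left -0.26 with shTMLHE 1, and shTMLHE 1 minus shTMLHE 2 was -0.77 ± 0.10 (adjusted p = 1.97e-08). With the trend removed, the shTMLHE 2 value turned to -0.40 (adjusted p = 0.000487), so both hairpins then stood below CCNE1 cells, shTMLHE 1 still by more (-0.46 between them, adjusted p = 0.000175). Of the 50-base stretches of SLFN11, 9.69% also occur in SLFN13 or SLFN12L.

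ABCB1 (ENSG00000085563, chr7:87503633-87713323, minus strand), the efflux pump P-glycoprotein, which exports several PARP inhibitors, had few counts. It stood at 1.31, 3.43 and 2.06 CPM in shTMLHE 1 cells and 3.25, 2.12 and 1.63 CPM in shTMLHE 2 cells, against 0.597, 2.15 and 0.634 CPM in CCNE1 cells and 0.836, 1.59 and 1.82 CPM in control cells, from 8 to 79 counts per library. All groups overlapped. The shTMLHE 2 value of 1.01 ± 0.43 passed (edgeR adjusted p = 0.0343), but not without CCNE1 replicate 1 (0.73, adjusted p = 0.148), without CCNE1 replicate 3 (0.72, adjusted p = 0.159), without shTMLHE 2 replicate 1 (0.70, adjusted p = 0.211) or with the trend removed (0.45, adjusted p = 0.368). From the compared groups alone it was 1.00 (adjusted p = 0.0509), on log2(FPKM + 0.1) 0.84 (limma, adjusted p = 0.0657) and on log2(FPKM + 1) 0.23 (adjusted p = 0.0881), but 1.54 on total counts. Without CCNE1 replicate 2 it was 1.92. The shTMLHE 1 value was 0.96 ± 0.44 (adjusted p = 0.0565), 1.87 (adjusted p = 0.00132) without CCNE1 replicate 2 1.24 (adjusted p = 0.0236) without shTMLHE 1 replicate 1 and 1.35 (adjusted p = 0.00671) on total counts. With CCNE1 it was -0.27 ± 0.47 (adjusted p = 0.684), and between the hairpins -0.05 ± 0.40 (adjusted p = 0.92).

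**Figure D3:**
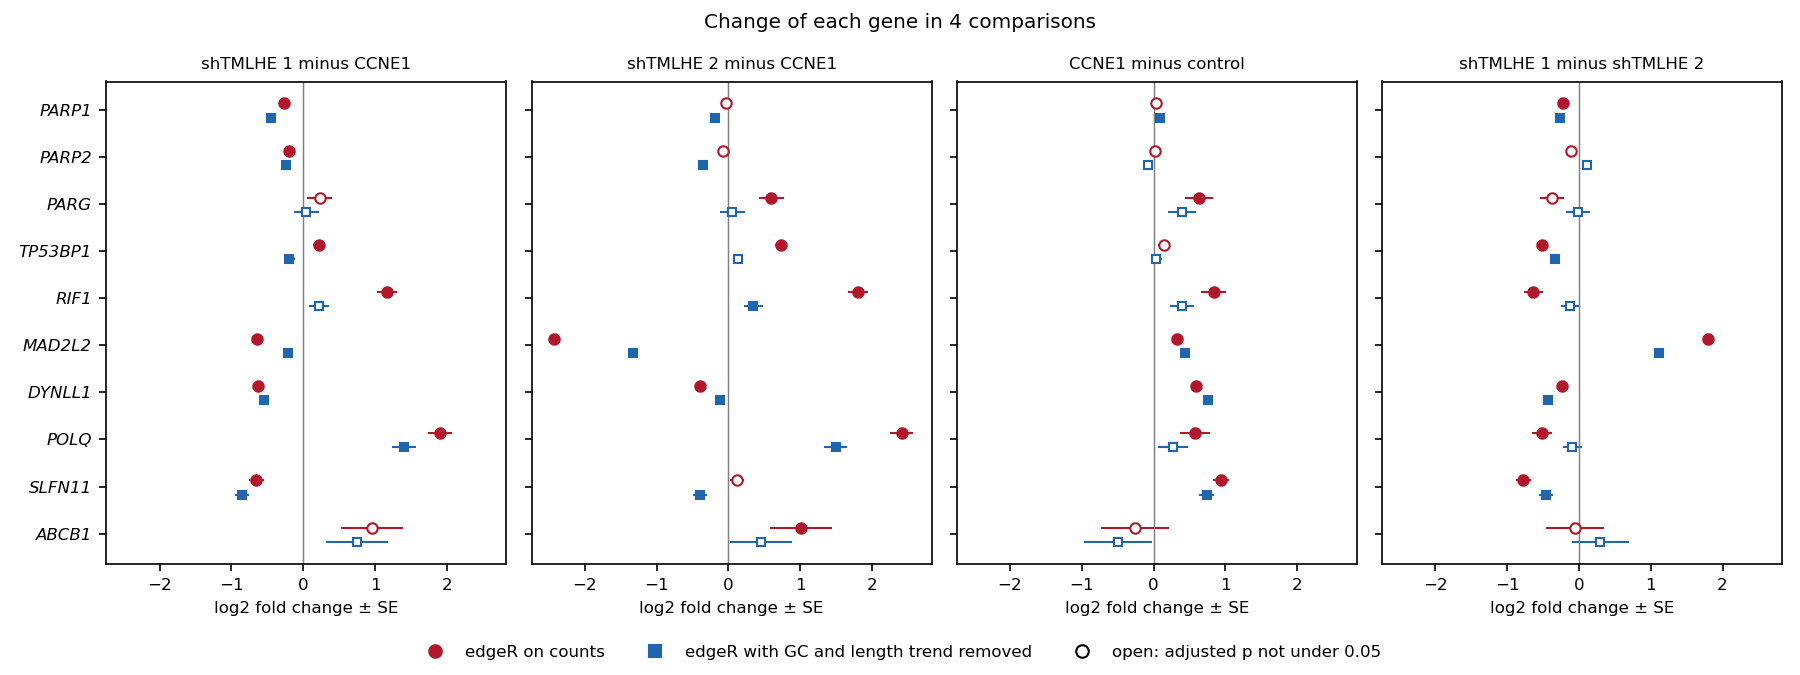
Log2 fold change ± SE of each of the 10 genes in 4 comparisons, from counts as scaled by TMM (red circles) and with the GC and length trend of each library removed (blue squares), with open symbols where the adjusted p was not under 0.05. The POLQ rises with both hairpins and the MAD2L2 falls stay filled in both versions, while the RIF1 rise with shTMLHE 1 drops from 1.17 to 0.22 and opens.

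Ordered by level on TMM-scaled counts, RIF1 and POLQ ran shTMLHE 2, shTMLHE 1, CCNE1, control from high to low, and every neighbouring pair passed the test. With the GC and length trend removed, no neighbouring RIF1 pair passed (edgeR adjusted p = 0.415, 0.178 and 0.0591). For POLQ the pair of shTMLHE 1 and CCNE1 alone then passed. The orders that follow are those on TMM-scaled counts too. TP53BP1 had the order of RIF1 and POLQ, but CCNE1 and control cells did not differ beyond their spread. PARG followed it too, and there the CCNE1 and control step alone passed between neighbours. DYNLL1 ran CCNE1, shTMLHE 2, control, shTMLHE 1, with the last pair not separated. SLFN11 had shTMLHE 2 and CCNE1 cells at the top, not separated by the test, then shTMLHE 1, then control. For PARP1 the step down to shTMLHE 1 alone passed, and for PARP2 and ABCB1 no neighbouring pair did.

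Per kilobase of exon, DYNLL1 was the most abundant of the 10 mRNAs in every group, at 49.8 ± 1.0 CPM per kilobase in shTMLHE 1 cells, 58.7 ± 1.0 in shTMLHE 2 cells, 77.2 ± 5.3 in CCNE1 cells and 51.4 ± 2.5 in control cells (SD, n = 3 each). ABCB1 was the least abundant in every group, at 0.39 ± 0.18, 0.40 ± 0.14, 0.19 ± 0.15 and 0.24 ± 0.09 CPM per kilobase in the same order of groups. The ranks of MAD2L2 moved most at the top. It held rank 3 at 31.2 ± 1.2 in shTMLHE 1 cells and rank 4 at 8.99 ± 0.25 in shTMLHE 2 cells, against rank 2 at 48.6 ± 2.1 in CCNE1 cells and rank 2 at 38.9 ± 1.8 in control cells. POLQ was at 1.82 ± 0.19 and 2.61 ± 0.22 CPM per kilobase in shTMLHE 1 and shTMLHE 2 cells, against 0.49 ± 0.11 in CCNE1 cells and 0.33 ± 0.10 in control cells, and it ranked 7 of the 10 in both hairpin groups, against 8 in CCNE1 and control cells.

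The partners of these proteins moved in both directions. Of 20 tested partners of 53BP1, 7 rose and 4 fell with shTMLHE 1, 12 rose and 3 fell with shTMLHE 2, and 7 rose and 3 fell with CCNE1, with medians of -0.01, 0.58 and 0.11. Between the hairpins 3 were higher and 11 lower in shTMLHE 1 cells. ATM, the kinase that opens break signalling, rose by 1.11 ± 0.09 with shTMLHE 1 and 1.46 ± 0.09 with shTMLHE 2. H2AFX, the histone variant it marks, fell by 0.65 ± 0.06 and 1.46 ± 0.06. MDC1, the reader of that mark, rose by 0.71 ± 0.05 with shTMLHE 2 and fell by 0.43 ± 0.05 with CCNE1. POLA1, the catalytic subunit of the polymerase alpha that fills in ends with shieldin, rose by 1.01 ± 0.10 with CCNE1, fell by 0.81 ± 0.10 with shTMLHE 1, rose by 0.48 ± 0.09 with shTMLHE 2 and was 1.29 ± 0.10 lower in shTMLHE 1 than in shTMLHE 2 cells (log2 -1.29). After removal of that trend in GC and length, the ATM values were 0.21 (adjusted p = 0.0456) and 0.11 (adjusted p = 0.279) and those of H2AFX -0.04 and -0.07 (adjusted p = 0.492 and 0.253). MDC1 kept its calls with shTMLHE 2 and with CCNE1. POLA1 kept its calls with CCNE1 (0.76), with shTMLHE 1 (-1.06) and between the hairpins (-0.94). For POLA1 with shTMLHE 2, the value with the trend removed is not given here.

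Theta-mediated end joining partners, 10 genes, gave 2 rises and 5 falls with shTMLHE 1, 4 and 5 with shTMLHE 2, and 4 and 1 with CCNE1, and 4 were higher and 4 lower in shTMLHE 1 than in shTMLHE 2 cells. Without control replicate 1, the calls with CCNE1 numbered 3 in place of 5. Of 4 genes of end resection (NBN, RBBP8, MRE11, RAD50), 2 rose with both hairpins: NBN by 1.12 ± 0.12 with shTMLHE 1 and 1.91 ± 0.11 with shTMLHE 2, and RBBP8 (CtIP) by 0.72 ± 0.14 and 1.38 ± 0.14. Free of the trend these were 0.54 and 0.78 for NBN and 0.37 and 0.56 for RBBP8, and each still passed. MRE11, the nuclease partner of NBN, stood at 0.02 ± 0.09 with shTMLHE 1 (adjusted p = 0.872) and rose by 0.46 ± 0.09 with shTMLHE 2, and RAD50, the third subunit of that complex, passed with neither (adjusted p = 0.261 and 0.0769). APEX2, an endonuclease of base excision repair, fell by 1.28 ± 0.08 with shTMLHE 1 and by 1.77 ± 0.08 with shTMLHE 2. LIG1, the replicative DNA ligase, fell by 0.74 ± 0.06 with shTMLHE 1 and by 1.38 ± 0.06 with shTMLHE 2. With CCNE1, MRE11 rose by 1.25 ± 0.11 and LIG3, the ligase of alternative end joining, fell by 0.60 ± 0.11.

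Among 13 tested other PARP enzymes, 5 rose and 2 fell with shTMLHE 1, 8 and 3 with shTMLHE 2, and 4 and 5 with CCNE1, and 2 were higher and 6 lower in shTMLHE 1 than in shTMLHE 2 cells. PARP11 and PARP15 had too few counts to test. TNKS2, tankyrase 2, rose by 0.96 ± 0.09 with shTMLHE 1, 1.16 ± 0.08 with shTMLHE 2 and 0.97 ± 0.10 with CCNE1. PARP10, a mono-ADP-ribosyltransferase, fell by 0.32 ± 0.08 with shTMLHE 1 and by 1.57 ± 0.09 with shTMLHE 2. Its shTMLHE 1 value was -0.01 with the trend removed (adjusted p = 0.894) and 0.07 on total counts (adjusted p = 0.453), and its shTMLHE 2 value was -0.43 with the trend removed. TNKS2 with shTMLHE 2 was then 0.52. A list of 10 readers and erasers of ADP-ribose and partners of PARP enzymes was counted as well. Of these 2 rose and 5 fell with shTMLHE 1, 4 and 4 with shTMLHE 2, and 3 and 1 with CCNE1. Between the hairpins 4 were higher and 3 lower in shTMLHE 1 cells. The 4 calls with CCNE1 became 2 without control replicate 2, 1 without control replicate 3 and 2 without CCNE1 replicate 3. MACROD1, a mono-ADP-ribosyl hydrolase, fell by 1.31 ± 0.05 with shTMLHE 1 and 2.42 ± 0.05 with shTMLHE 2, or by 0.75 and 1.01 with the trend removed.

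Of 4 tested other Schlafen genes, 1 rose and 1 fell with shTMLHE 1, 2 rose with shTMLHE 2 and 3 rose with CCNE1, where SLFN13 gained 0.62 ± 0.07 (0.32 with the trend removed). Between the hairpins 0 were higher and 2 lower in shTMLHE 1 cells. The 3 calls with CCNE1 became 1 without control replicate 2 or without CCNE1 replicate 1, and the 2 with shTMLHE 2 became 1 without CCNE1 replicate 2. One of those 2, SLFN5 (0.40), turned to -0.75 with the trend removed, and the fall with shTMLHE 1, SLFN13 (-0.28), stood at 0.11 on total counts (adjusted p = 0.133). SLFN12 rose by 0.71 ± 0.19 with shTMLHE 1 and 1.76 ± 0.18 with shTMLHE 2, or by 0.45 and 1.03 with the trend removed. The list of other efflux pumps, 10 tested genes, also holds MVP, which encodes the major vault protein and not a pump. Of this list 3 rose with shTMLHE 1, 2 rose and 2 fell with shTMLHE 2, and 1 rose and 3 fell with CCNE1. Between the hairpins 3 were higher and 1 lower in shTMLHE 1 cells. Both falls with shTMLHE 2, MVP (-0.17) and ABCC1 (-0.11), turned to called rises with the trend removed (0.62 and 0.11) and on total counts (0.36 and 0.42). ABCC5, an organic anion pump, rose by 1.02 ± 0.14 with shTMLHE 1 and by 0.89 ± 0.14 with shTMLHE 2, of which 0.67 and 0.66 were left with the trend removed. Of 17 genes of fork handling and ribonucleotide removal known from PARP inhibitor response, 6 rose and 4 fell with shTMLHE 1, 10 and 3 with shTMLHE 2, and 9 and 3 with CCNE1, and 4 were higher and 8 lower in shTMLHE 1 than in shTMLHE 2 cells. USP1, the deubiquitinase of FANCD2 and PCNA, rose by 1.31 ± 0.06, 1.79 ± 0.06 and 0.96 ± 0.08 with shTMLHE 1, shTMLHE 2 and CCNE1, and the shTMLHE 2 value was 1.097 with the trend removed. RNASEH2C, a subunit of the enzyme that removes ribonucleotides from DNA, fell by 1.28 ± 0.05 and 1.57 ± 0.05 with the hairpins and rose by 0.48 ± 0.05 with CCNE1, the same directions as DYNLL1 and MAD2L2. Every list here was chosen with earlier results of these data known, and the counts stand against the shares over all genes given above.

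**Figure D4:**
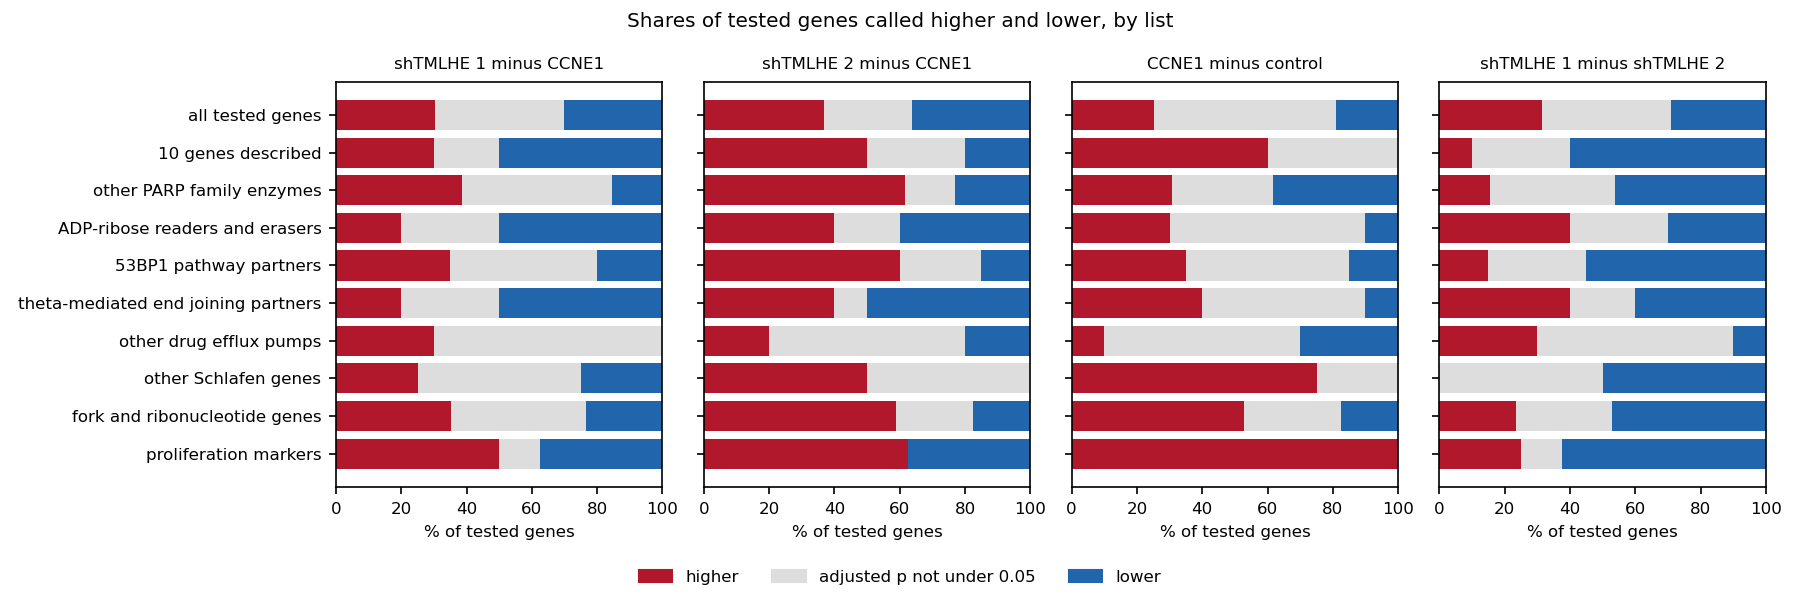
Share of tested genes that were higher (red), not called (grey) or lower (blue) at an adjusted p under 0.05, in percent, for all tested genes, the 10 genes and each related list in 4 comparisons. The 10 genes split 3 higher and 5 lower with shTMLHE 1, 5 and 2 with shTMLHE 2, and 6 and 0 with CCNE1.

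Over the 12 libraries, the log2 CPM of POLQ followed that of RIF1 (Pearson r = 0.966), and TP53BP1 and MAD2L2 ran opposite (r = -0.925). The genes most like each member by the same measure were ZNF445 (0.992) and CCDC14 (0.991) for POLQ, ZNF638 (0.993) and SEPTIN7 (0.992) for RIF1, and BIRC5 (0.998) and PKN3 (0.997) for MAD2L2. SEPTIN7 was found by its gene ID, since its symbol in the deposited table reads as a date. TAB2 and FAM208A (both 0.982) were most like TP53BP1, MFN1 (0.979) and ZNF776 (0.973) most like PARG, and PPP2R2C (0.987) and DIRC2 (0.979) most like PARP1. For DYNLL1 these were F8 (0.961) and PCNA (0.956), and for SLFN11 CHCHD3 (0.985) and ST13 (0.982). PARP2 with EGR1 (0.875) and ABCB1 with GNL3L (0.861) had the weakest nearest matches. These are descriptions over 4 groups of 3 libraries that share a cell line and the GC trend.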

How the data were processed

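RNA was sequenced from 12 Ovcar8 libraries, grouped by their labels. The authors deposited whole-number counts per gene, not normalized, and FPKM, which already carried a scaling between libraries. STAR 2.6.1, DESeq2 and GRCh38 were used upstream, per the submitters' processing notes; for the counting program, strand setting and multi-mapping rule, the entry is: not given in the sources used here. Gene lengths in the deposited table matched GENCODE 29, which gave coordinates, exon overlaps and GC content. Genes were filtered with filterByExpr by group and tested with edgeR 4.0.16 (TMM, robust quasi-likelihood fit over all 12 libraries, 8 residual degrees of freedom) in R 4.3.3, with Benjamini-Hochberg adjustment over 15378 genes and calls at an adjusted p under 0.05. The script was tested on simulated data. Log2 changes are given ± SE, which is the size of the log2 fold change divided by the square root of F. Levels are given as mean ± SD.

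The trend with GC content and exon length was fitted per library with splines of 5 degrees of freedom on log2 CPM and entered as offsets. Other alternatives were total counts, DESeq2 size factors (RLE), DESeq2 1.42.0, other count filters, the compared groups alone, a replicate block, each library left out, and limma 3.58.1 on log2(FPKM + 0.1) and log2(FPKM + 1). Same-numbered replicates did not deviate together (18 pairs, r from -0.046 to 0.026), so the numbers were not used as pairs in the main fit. That check cannot show whether same-numbered libraries were prepared together. Named genes were all 10 members and the 2 most correlated genes whose mean log2 CPM was 1 or more. Per related list and comparison, up to 2 called genes in each direction were picked by smallest p, and some of these are given. Other list genes are given in comparisons where that rule did not pick them, such as APEX2 with shTMLHE 2 and LIG1 with shTMLHE 1. RAD50 was picked in no comparison and is given beside NBN and MRE11. The members and lists were chosen with earlier results of these data known. All per-sample columns were used.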

Additional observations from a re-analysis of the deposited data

How the results depend on the processing

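Over 920 recomputed results of the 10 genes, 834 kept their direction and side of the threshold, 36 lost the call, 28 gained one and 22 turned. Removal of the GC and length trend turned PARP2 with CCNE1 (-0.083), TP53BP1 with shTMLHE 1 (-0.19), SLFN11 with shTMLHE 2 (-0.40), and PARP2 (0.12) and ABCB1 (0.30) between the hairpins. With the replicate block and that trend removed together, they were -0.0834, -0.19, -0.40, 0.12 and 0.18. In that fit 3 of the 10 genes were called with CCNE1, against 6 in the main fit. Over all genes it called 5467 of 15373 with CCNE1, against 6802 of 15378. Total counts turned PARP1 (0.13 with shTMLHE 1, 0.49 with shTMLHE 2), PARP2 (0.20, 0.45) and DYNLL1 with shTMLHE 2 (0.14). PARP2 with CCNE1 was -0.0034 from the compared groups alone.

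Leaving out 1 library at a time, PARP2 with CCNE1 ranged from -0.0174 to 0.0768, ABCB1 with CCNE1 from -1.17 to 0.0316, and ABCB1 between the hairpins from -0.48 to 0.27. The genes called per comparison ranged from 8629 to 9447 with shTMLHE 1, 10661 to 11371 with shTMLHE 2, 6168 to 6778 with CCNE1 and 8437 to 9552 between the hairpins. Of the 10 genes, 7 to 9, 6 to 7, 5 to 7 and 7 to 8 were called. The cause was not tested beyond what each alternative changes. With the replicate block alone, 9231, 11123, 6624 and 9125 genes and 9, 7, 6 and 8 of the 10 were called in the same order of comparisons. With the block ABCB1 with shTMLHE 1 passed at 1.02 (adjusted p = 0.0406) and PARG between the hairpins at -0.37 (adjusted p = 0.0495). Whether same-numbered libraries belong together is not given in the labels. MAD2L2, POLQ, RIF1 and PARG kept their direction in 4 comparisons under each alternative run. So did DYNLL1 and SLFN11 with shTMLHE 1, with CCNE1 and between the hairpins, and TP53BP1 with shTMLHE 2, with CCNE1 and between the hairpins. PARP1 kept it with CCNE1 and between the hairpins, and ABCB1 with both hairpins. Some of these lost their call all the same, such as RIF1 with shTMLHE 1 once the trend was removed. Depth limits ABCB1 most, with 8 to 79 counts per library, and next POLQ and RIF1 in control cells.

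Removal of the trend lowered the calls over all genes, to 5626 of 15373 with CCNE1, 9699 with shTMLHE 2 and 7391 between the hairpins. Before, these were 6802, 11224 and 9277 of 15378. With the trend removed, the called 53BP1 partners numbered 6 with CCNE1 and 6 between the hairpins (10 and 14 before). The other PARP enzymes numbered 7, ADP-ribose genes 4 and proliferation markers 5 with shTMLHE 2 (11, 8 and 8 before). Theta partners then numbered 5 and fork genes 7 between the hairpins (8 and 12 before). Total counts gave 5 genes of the efflux pump list with shTMLHE 1 and 7 with shTMLHE 2 (3 and 4 before). They gave 4 Schlafen genes with shTMLHE 2 (2 before). Over all genes they gave 10334 calls with shTMLHE 1 and 11758 with shTMLHE 2 (9338 and 11224 before).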
